A study of Rattus norvegicus with 10 samples.

Results

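The genes described here are 65 genes of vesicle trafficking and the secretory pathway, measured by RNA sequencing in the supraoptic nucleus (SON) of the rat hypothalamus. They were selected on measured values. Their symbols start with one of 20 prefixes of trafficking genes (Rab, Vps, Snx, Stx, Syt, Vamp, Snap, Sec, Cop, Trappc, Tmed, Arf, Exoc, Golg, Scg, Chg and Ap1 to Ap4). They were taken from the 1999 genes that had the smallest adjusted p in the study's own comparison of these SONs. Symbols were available here for those genes only, as only that part of the study's list could be used. The prefixes matched 67 symbols, and Rab11b and Sec24c were left out because the study's KEGG pathway list held them. The 65 genes are a subset of 32402 genes in the count table and of 16286 that had enough counts to be tested here, and all 65 passed that filter. The lowest count of any of them in any SON was 41. Because the comparison of knockdown with control chose these genes, their differences between the groups are a description: no p-value is given for a single one of them, and the counts of calls are set beside those of all genes tested.

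The 10 SONs came from 5 male Sprague Dawley rats of 250 to 274 g. Each animal received an adeno-associated virus (AAV) with a non-targeting control short hairpin RNA (shRNA) in the left SON and an AAV with a Creb3l1 shRNA in the right SON, and served as its own control. Tissue was taken 3 weeks after injection with a 1 mm punch, so each sample held magnocellular neurones, glia, vessels and neighbouring tissue, and poly(A) RNA was sequenced. The control side was the left and the knockdown side the right in all 5 animals, so side and treatment cannot be told apart.

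Magnocellular neurones of the SON make vasopressin and oxytocin. The prohormones enter the endoplasmic reticulum (ER), pass the Golgi and are packed at the trans-Golgi network into dense-core granules, which travel down the axon and release their content by exocytosis in the posterior pituitary. Coat and adaptor complexes (COPI, COPII, AP-1 to AP-4) shape vesicles and choose cargo, Rab and Arf GTPases mark each membrane, tethers such as TRAPP, exocyst, GARP and HOPS hold a vesicle at its target, and SNARE proteins fuse it. Creb3l1 is a transcription factor that is made as an ER membrane protein and is released by cleavage in the Golgi.

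Levels are given in TMM-normalised CPM, the counts per gene relative to the library total after edgeR's TMM scaling, and differences as the log2 fold change of knockdown relative to control with its standard error (SE). A level was not corrected for transcript length, so levels of different genes are not compared. The total count was 29020948 to 34382889 per SON. Creb3l1 (ENSRNOG00000005413), the targeted gene, was at 20.3, 26.5, 30.7, 33.5 and 23.4 CPM in control replicates 1 to 5 and at 7.10, 13.8, 8.69, 16.7 and 13.6 CPM in knockdown replicates 1 to 5. The groups did not overlap (log2 fold change -1.16, SE 0.24; edgeR quasi-likelihood adjusted p = 0.0173; exact two-sided permutation p = 0.00794 with the SONs as unpaired, the smallest that 5 against 5 allow). With the animal as a block the edgeR adjusted p was 0.0586, and an exact two-sided permutation within the 5 animals, all of which were lower on the knockdown side, gave p = 0.0625, the smallest that 5 pairs allow. Of 51 marker genes listed for the cell types of the punch, 4 (Sim1, Creb3l1, Pdyn and Nefm) were among the 1999 genes with a symbol. Other genes were known here by Ensembl identifier only, as the rest of the study's list of symbols was not available. Astrocyte, oligodendrocyte, microglia, endothelium and lymphocyte markers could therefore not be found by name and were not analysed here.

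Of the 65 genes, 42 were lower and 23 were higher in the knockdown SONs. Log2 fold changes ran from -1.53 for Scgn to 1.18 for Rab15. The median was -0.38 over the lower genes, 0.50 over the higher genes and -0.27 over all 65, against 0.04 over all genes tested. Most differences were small: 41 of the 65 genes differed by less than 0.5 on the log2 scale, and 3 (Scgn, Arfgef3 and Rab15) by 1 or more. The median coefficient of variation among the control SONs was 6.53%, against 15.6% over all genes tested, a difference that the choice by adjusted p favours.

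At an adjusted p under 0.05 edgeR called 36 of the 65 genes, 21 lower and 15 higher. Over all genes tested it called 7.86%, with 4.49% lower and 3.36% higher. Scaling by library size alone called 37 lower and 12 higher. DESeq2, the tool with which the genes had been chosen, called all 65, 42 lower and 23 higher. It called 9.03% of 24224 genes with a p-value (5.24% lower and 3.79% higher). That fit had no filter on low counts, and genes without an adjusted p counted as not called. Its share is therefore over a wider set than that of edgeR. With the animal as a replicate block edgeR called 0 of the 65, and 0.0553% of all genes (0.043% lower and 0.0123% higher). In that fit 63 of the 65 had an unadjusted p under 0.05, as did 18.4% of all genes. The lower count depended on single SONs and was 8 without knockdown replicate 1, 9 without control replicate 3, 10 without control replicate 5, 13 without knockdown replicate 2 or knockdown replicate 4, and 34 without knockdown replicate 3. The higher count was between 12 and 15 when any 1 SON was left out. For the fits without 1 SON and for library size alone, the share of all genes called was not counted. Whether the shifts are particular to the 65 genes was therefore not tested. In 20 of the 36 called genes, 8 lower and 12 higher, the call was made in all 10 fits that left out 1 SON. Those fits reuse the SONs that chose the genes. A call kept in all of them is therefore a description, here and in the role groups below. How many of all genes tested kept theirs was not counted.

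The knockdown and control values did not overlap for 44 of the 65 genes. In 27 genes all knockdown SONs lay below all control SONs, and in 17 genes all lay above. Over all genes tested the groups did not overlap for 9.65%, with 5.5% wholly below and 4.16% wholly above. The difference had the same direction in all 5 animals for 62 of the 65 genes, against 19.9% of all genes, and in 4 animals for Trappc3, Scg5 and Syt17. No gene changed direction in any of the 17 other fits. These shares follow from how the genes were chosen and are given as a description.

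**Figure D1:**
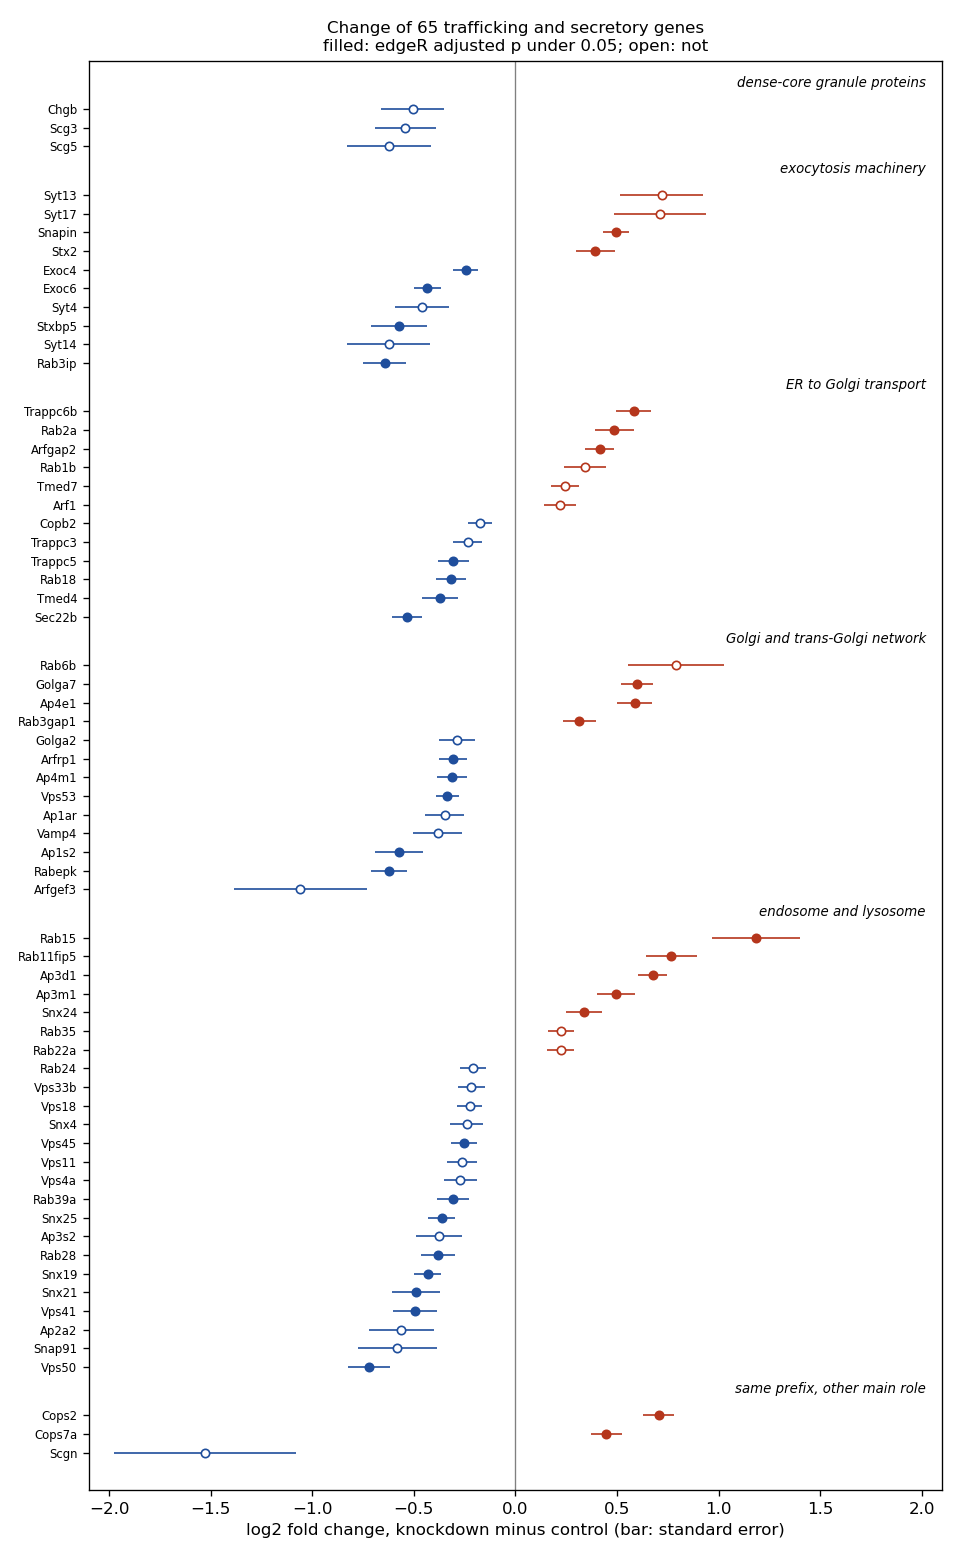
Log2 fold change of knockdown relative to control for each of the 65 genes, with its standard error as a bar, grouped by role. Filled points mark the 36 genes with an edgeR adjusted p under 0.05 and open points the other 29. Every group except the 3 dense-core granule proteins holds genes on both sides of 0, and Scgn at -1.53 and Rab15 at 1.18 stand at the ends.

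The 3 dense-core granule proteins were all lower. Scg5 (ENSRNOG00000007542) encodes 7B2, the chaperone of prohormone convertase 2, and was at 281, 361, 313, 303 and 367 CPM in control replicates 1 to 5 and at 193, 226, 324, 182 and 131 CPM in the knockdown replicates. Its mean went from 325 ± 37.6 (SD, n = 5) to 211 ± 71.7 CPM, 64.96% of control (log2 fold change -0.62, SE 0.21). Knockdown replicate 3 lay inside the control range and above its own control SON, and the other knockdown SONs lay below all control SONs. Scg3 (ENSRNOG00000010784), a secretogranin that ties chromogranins to the granule membrane, was at 191, 206, 211, 222 and 222 CPM in the control SONs and 142, 154, 198, 123 and 106 CPM in the knockdown SONs (log2 fold change -0.54, SE 0.15). Chgb (ENSRNOG00000021269), chromogranin B of the granule matrix, was at 475, 547, 503, 531 and 511 CPM and 322, 405, 475, 355 and 249 CPM (log2 fold change -0.51, SE 0.15). In both genes knockdown replicate 3 was within the control range and knockdown replicate 5 was the lowest of the 10 SONs. Chgb averaged 513 ± 27.4 CPM (SD, n = 5) in the control SONs and 361 ± 85.3 CPM in the knockdown SONs, which were the more spread of the groups. None of the 3 was called by edgeR with TMM factors and the filter used here. Without knockdown replicate 3 all 3 passed the threshold. Scg3 also passed it with RLE factors, library size only, at least 10 counts in every SON or limma-voom, and Chgb with library size only.

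Of 7 markers of magnocellular neurones 3 (Sim1, Pdyn and Creb3l1, the target of the shRNA) were among the 1999 genes with a symbol. The comparison of knockdown with control had chosen those genes too, so their direction is a description. All 3 were lower, as were the granule proteins. Sim1 (ENSRNOG00000037600), a transcription factor of these neurones, was at 52.7, 58.5, 44.5, 72.8 and 48.05 CPM in the control SONs and 23.02, 18.6, 35.3, 29.9 and 15.6 CPM in the knockdown SONs. Pdyn (ENSRNOG00000026036), the prodynorphin peptide precursor that vasopressin neurones store, was at 544, 324, 416, 599.98 and 465 CPM and 90.6, 82.8, 259, 138 and 27.4 CPM. In both, knockdown replicate 3 was the highest and knockdown replicate 5 the lowest of the knockdown SONs, as in the 3 granule proteins. For Creb3l1 knockdown replicate 4 was the highest and knockdown replicate 1 the lowest. Of 8 general neurone markers 1, the neurofilament gene Nefm (ENSRNOG00000013916), was among the genes with a symbol. Nefm was higher instead, at 116, 189, 146, 150.4 and 178 CPM and 298, 269, 232, 240.2 and 195 CPM. The part of these markers in the granule result was not tested. In a tissue punch, fewer magnocellular neurones and less RNA per neurone cannot be told apart.

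The exocytosis machinery, 10 genes, was split, with 6 lower and 4 higher. Of these 4 lower and 2 higher were called (4.49% and 3.36% of all genes tested). In 8 of the 10 the groups did not overlap (9.65% of all genes tested). The choice of the genes favours both counts, here and in the other role groups. The lower side held Rab3ip, Syt14, Stxbp5, Syt4 and the exocyst genes Exoc6 and Exoc4, and the higher side held Syt13, Syt17, Snapin and Stx2.

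Rab3ip (ENSRNOG00000005362), the exchange factor that activates Rab8 on secretory vesicles, was at 28.8, 21.6, 26.8, 23.5 and 25.6 CPM in the control SONs and 15.3, 13.6, 16.8, 17.4 and 17.6 CPM in the knockdown SONs. All knockdown SONs lay below all control SONs, and the mean was 63.98% of control (log2 fold change -0.64, SE 0.10). Stxbp5 (ENSRNOG00000013351), tomosyn, which inhibits SNARE assembly, was at 152, 154, 149.6, 195 and 159 CPM and 111, 98.8, 146, 99.5 and 87.9 CPM (log2 fold change -0.57, SE 0.14). The groups did not overlap, but knockdown replicate 3 was just below the lowest control SON, and the call was lost in 8 of the 10 fits that left out 1 SON. It held without control replicate 1 and without knockdown replicate 3. Syt14 (ENSRNOG00000046139), a synaptotagmin that does not bind calcium, was at 7.43, 9.37, 10.6, 13.7 and 9.63 CPM and 6.76, 8.03, 8.19, 4.80 and 5.10 CPM (log2 fold change -0.62, SE 0.20), and its groups overlapped.

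Syt13 (ENSRNOG00000008000), another synaptotagmin that does not bind calcium, was at 63.4, 143, 105, 99.96 and 131 CPM in the control SONs and 203, 192, 204, 149.5 and 144 CPM in the knockdown SONs. All knockdown SONs were above all control SONs, control replicate 2 being just below knockdown replicate 5 (log2 fold change 0.72, SE 0.20). Syt17 (ENSRNOG00000017136) was at 15.4, 36.1, 18.6, 21.6 and 22.5 CPM and 42.4, 29.6, 46.8, 38.5 and 29.8 CPM (log2 fold change 0.71, SE 0.23), and control replicate 2 lay within the knockdown range. In animal 2 Syt17 was lower on the knockdown side. For both genes control replicate 1 was the lowest and control replicate 2 the highest of the control SONs. Neither was called.

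Snapin, which binds SNAP-25 and also serves lysosome positioning, rested on tighter values: 79.2 to 89.5 CPM in the control SONs and 107 to 125 CPM in the knockdown SONs (log2 fold change 0.50, SE 0.07). The plasma membrane SNARE Stx2 was at 19.2 to 23.7 and 24.3 to 30.8 CPM (0.39, SE 0.10). Syt4, a synaptotagmin found on dense-core vesicles, was at 326 to 369.8 and 181 to 316 CPM (-0.46, SE 0.13) and was not called. The exocyst, which tethers secretory vesicles to the plasma membrane, had 2 of its subunits among the 65 genes. Both were lower and called, as were 4.49% of all genes tested: Exoc6 at 33.8 to 40.6 CPM against 26.2 to 28.5 CPM (-0.43, SE 0.07) and Exoc4 at 60.8 to 70.4 CPM against 51.9 to 57.5 CPM (-0.25, SE 0.06). Rab3ip, Exoc6 and Snapin kept their call in every fit that left out 1 SON.

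**Figure D2:**
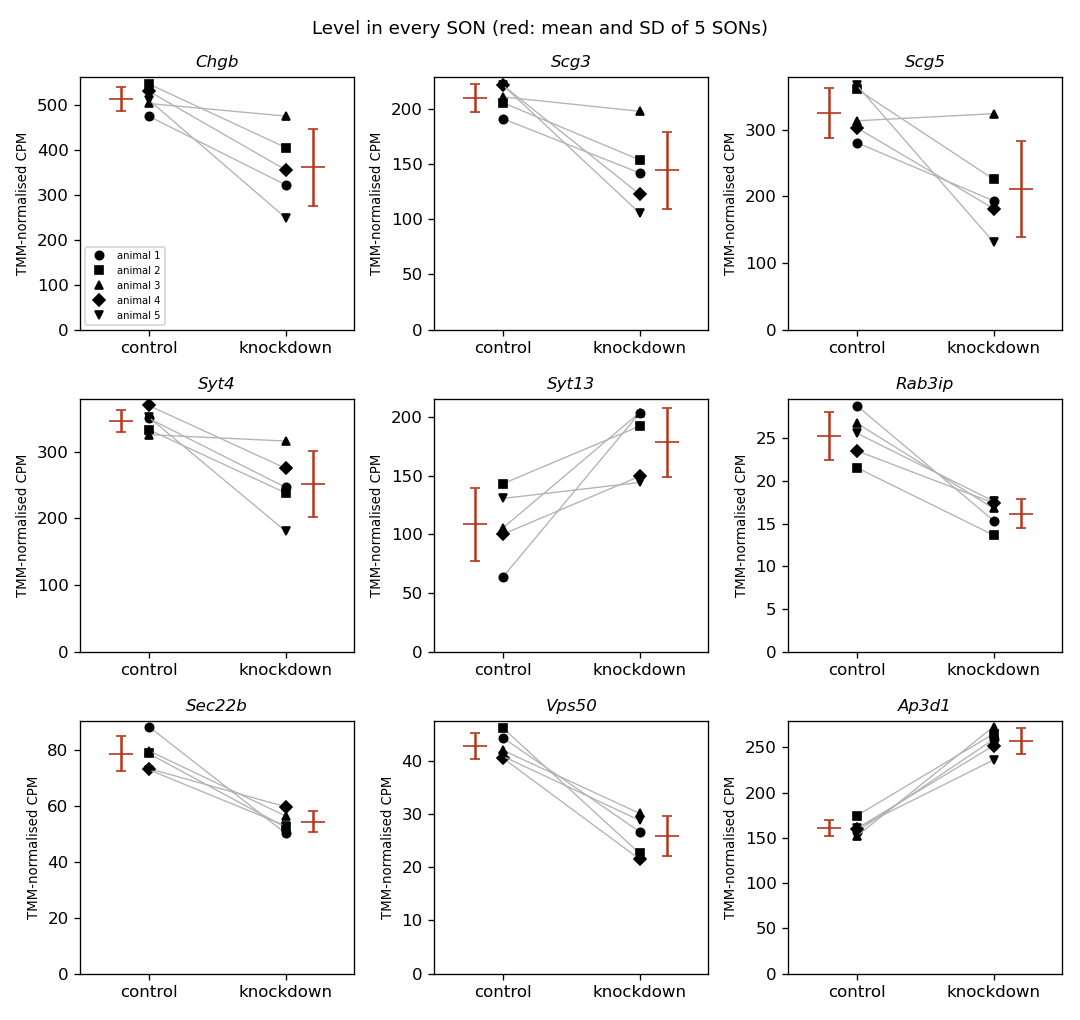
TMM-normalised CPM in each control and knockdown SON for 9 of the genes, with a line joining the 2 SONs of an animal, a marker shape for each animal, and the mean and SD of 5 SONs in red beside each group. For Chgb, Scg3, Scg5 and Syt4 the line of animal 3 is close to flat while the lines of the other animals fall, whereas Rab3ip, Sec22b and Vps50 fall and Ap3d1 rises in all 5 animals without overlap of the groups.

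Transport between the ER and the Golgi, 12 genes, was evenly split, with 6 lower and 6 higher. Of these 4 lower and 3 higher were called (4.49% and 3.36% of all genes tested). The call was made in every fit that left out 1 SON for 4 of the 7 (Sec22b, Arfgap2, Rab2a and Trappc6b). Sec22b (ENSRNOG00000018673), a SNARE of vesicles between ER and Golgi, was at 88.2, 78.6, 79.6, 73.2 and 72.8 CPM in the control SONs and 50.1, 52.2, 56.3, 59.6 and 52.8 CPM in the knockdown SONs. The groups did not overlap, and the mean was 69.03% of control (log2 fold change -0.53, SE 0.08). Tmed4 (ENSRNOG00000005016), a p24 cargo receptor, was at 83.4, 84.5, 89.2, 84.7 and 88.2 CPM and 62.5, 67.1, 80.02, 66.9 and 56.1 CPM (log2 fold change -0.37, SE 0.09). Rab18 (ENSRNOG00000018972), a GTPase of the ER and of lipid droplets, was at 104, 104, 102, 102 and 101 CPM and 82.5, 84.6, 90.6, 84.3 and 69.5 CPM (log2 fold change -0.32, SE 0.07). For both, the control SONs lay close together and knockdown replicate 3 was nearest to them. The call of Rab18 was lost without control replicate 3, control replicate 5 or knockdown replicate 1, and that of Tmed4 also without knockdown replicate 2 or knockdown replicate 4.

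Trappc6b (ENSRNOG00000004103), a subunit of the TRAPP tether, was at 39.2, 39.7, 33.3, 31.00 and 37.6 CPM in the control SONs and 54.9, 53.1, 58.8, 55.2 and 48.7 CPM in the knockdown SONs, 149.7% of control (log2 fold change 0.58, SE 0.09). Rab2a (ENSRNOG00000005963), a GTPase of the intermediate compartment between ER and Golgi, was at 74.7, 88.1, 71.7, 66.1 and 76.8 CPM and 104, 113, 118, 103 and 90.7 CPM (log2 fold change 0.49, SE 0.10). In both genes every knockdown SON was above every control SON. Arfgap2, which stimulates GTP hydrolysis by Arf1 on COPI vesicles, was also higher (59.6 to 73.4 CPM against 82.1 to 91.5 CPM, log2 fold change 0.41, SE 0.07). Arf1, the GTPase that recruits the COPI coat, had a log2 fold change of 0.22, SE 0.08, and the COPI coat subunit Copb2 one of -0.17, SE 0.06, the smallest difference among the 65 genes. Neither was called, although the groups did not overlap in either gene. Rab1b, a GTPase needed for ER to Golgi traffic, had a log2 fold change of 0.34, SE 0.10 and was not called.

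The Golgi and trans-Golgi network, 13 genes, had 9 lower and 4 higher members. Of these 5 lower and 3 higher were called (4.49% and 3.36% of all genes tested). The calls held in every fit without 1 SON for 4 genes, Rabepk, Vps53, Ap4e1 and Golga7. Arfgef3 (ENSRNOG00000011460), a large protein related to the exchange factors of Arf GTPases, showed the lowest fold change of the trafficking genes (log2 fold change -1.06, SE 0.33). It was at 120.02, 120.2, 149, 225 and 114 CPM in the control SONs and 67.5, 56.5, 132, 58.2 and 35.5 CPM in the knockdown SONs. Control replicate 4 was far above the other control SONs, knockdown replicate 3 was above 3 control SONs, and the gene was not called. Rabepk (ENSRNOG00000018591), an effector of Rab9 in the return from endosomes to the trans-Golgi network, was steadier, at 32.4, 33.8, 35.4, 30.97 and 34.6 CPM and 22.7, 22.6, 24.3, 18.1 and 20.7 CPM (log2 fold change -0.62, SE 0.09). All knockdown SONs of Rabepk were below all control SONs. Ap1s2 (ENSRNOG00000038686), the small subunit of the AP-1 adaptor that sorts cargo at the trans-Golgi network, was at 165, 147, 149, 134 and 153 CPM and 93.5, 98.8, 133, 88.8 and 88.5 CPM (log2 fold change -0.57, SE 0.12). Knockdown replicate 3 stood apart from the other knockdown SONs and was just below the lowest control SON. Its call was lost without knockdown replicate 1.

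Rab6b (ENSRNOG00000009198), the neuronal form of the Golgi GTPase Rab6, was higher on average, at 203, 454, 254, 320.3 and 334 CPM in the control SONs and 590.3, 594, 722, 417 and 384 CPM in the knockdown SONs (log2 fold change 0.79, SE 0.24). Control replicate 2 lay within the knockdown range, and the gene was not called. Golga7 (ENSRNOG00000017956), the Golgi partner of a palmitoyl transferase, was at 108, 93.02, 96.5, 92.6 and 99.9 CPM and 159, 159.9, 130.2, 152 and 142 CPM (log2 fold change 0.60, SE 0.08), without overlap. Rab3gap1, which inactivates Rab3 and activates Rab18, was at 61.8 to 71.4 CPM against 75.1 to 97.99 CPM (0.32, SE 0.08), and lost its call in each of the 10 fits without 1 SON. Among the other lower genes, log2 fold changes were -0.31, SE 0.07 for Arfrp1, an Arf-related GTPase of the trans-Golgi network, -0.29, SE 0.09 for Golga2, the Golgi matrix protein GM130, -0.38, SE 0.12 for the SNARE Vamp4 and -0.35, SE 0.10 for Ap1ar, an AP-1 accessory protein. Of these Arfrp1 was called. Vps53 and Ap4m1, both lower and called, are given with their complexes.

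Endosome and lysosome genes were the largest group, with 24 genes, 17 lower and 7 higher. Of these 8 lower and 5 higher were called (4.49% and 3.36% of all genes tested). The call was made in every fit that left out 1 SON for 7 of the 13 (Vps50, Snx19, Snx25, Rab15, Rab11fip5, Ap3d1 and Ap3m1). Vps50 (ENSRNOG00000009894), a subunit of the EARP tether of recycling endosomes that also serves dense-core vesicle formation, was at 44.5, 46.3, 42.1, 40.6 and 40.98 CPM in the control SONs and 26.7, 22.7, 30.2, 21.6 and 28.9 CPM in the knockdown SONs. The groups were apart, and the mean was 60.6% of control (log2 fold change -0.72, SE 0.10), the lowest among the called genes. Among clathrin adaptors of endocytosis the knockdown SONs were more spread. Snap91 (ENSRNOG00000023861), the clathrin assembly protein AP180, was at 254, 371, 319, 369 and 349.5 CPM and 229, 239, 317, 171 and 155 CPM (log2 fold change -0.58, SE 0.19). Ap2a2 (ENSRNOG00000019534), the large alpha subunit of the AP-2 adaptor, was at 186, 243, 224, 240.4 and 227 CPM and 145, 145, 219.9, 129 and 121 CPM (log2 fold change -0.56, SE 0.16). In both, knockdown replicate 3 was within the control range and the other knockdown SONs were below all control SONs. Neither was called.

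On the higher side Rab15 (ENSRNOG00000007364), a GTPase of early and recycling endosomes, was at 29.1, 62.99, 30.2, 37.9 and 44.7 CPM in the control SONs and 104, 115, 90.8, 79.8 and 75.8 CPM in the knockdown SONs. Every knockdown SON was above every control SON, at a mean of 227% of control (log2 fold change 1.18, SE 0.22). Rab11fip5 (ENSRNOG00000056009), an effector of Rab11 on recycling endosomes, was at 38.9, 53.3, 40.4, 58.7 and 47.4 CPM and 82.4, 88.5, 88.2, 78.1 and 68.7 CPM (log2 fold change 0.77, SE 0.13), also without overlap. Sorting nexins, which bind endosomal membranes, were mostly lower. Log2 fold changes were -0.49, SE 0.12 for Snx21, -0.43, SE 0.07 for Snx19, -0.36, SE 0.07 for Snx25, -0.24, SE 0.08 for Snx4 and 0.34, SE 0.09 for Snx24. All but Snx4 were called (over all genes tested, 4.49% were called lower and 3.36% higher).

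Other genes of this group had smaller differences. Vps4a, the ATPase that recycles ESCRT complexes, had a log2 fold change of -0.27, SE 0.08, and Vps45, the partner of an endosomal syntaxin, one of -0.25, SE 0.06. Vps45 was called and Vps4a was not. The remaining Rab GTPases were Rab28 (-0.38, SE 0.08), Rab39a (-0.31, SE 0.08), Rab24 (-0.21, SE 0.06), Rab35 (0.23, SE 0.06) and Rab22a (0.22, SE 0.07), of which Rab28 and Rab39a were called. Over all 10 Rab GTPases 4 were lower and 6 higher, with 3 lower and 2 higher called (4.49% and 3.36% of all genes tested).

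Genes of 1 complex did not always differ in the same direction. Of the HOPS and CORVET tethers, which hold endosomes and lysosomes for fusion, Vps41 was at 174 to 209.9 CPM in the control SONs and 114 to 166 CPM in the knockdown SONs (log2 fold change -0.50, SE 0.11). Vps11 (-0.26, SE 0.07) and Vps18 (-0.22, SE 0.06) are shared by both tethers, and Vps33b (-0.22, SE 0.06) is a relative of their SNARE-binding subunit. All 4 were lower without overlap of the groups, and Vps41 was called. Over all genes tested 4.49% were called lower, 3.36% were called higher, and 9.65% had groups without overlap. The choice of the genes favours such counts, in these tethers and in the other complexes. Tgfbrap1, a CORVET subunit whose symbol has none of the prefixes, was higher, at 42.1 to 46.9 CPM in the control SONs and 47.8 to 54.3 CPM in the knockdown SONs (0.20, SE 0.06), also without overlap, and was not called. Of the related tethers GARP and EARP, Vps53, which is in both, had a log2 fold change of -0.33, SE 0.06 and Vps50, which is in EARP, one of -0.72, and both were called. The AP-3 adaptor, which carries cargo to lysosomes, was split: Ap3d1 was at 152 to 174 CPM against 236 to 273 CPM (0.68, SE 0.07) and Ap3m1 at 46.9 to 64.4 CPM against 71.2 to 84.8 CPM (0.50, SE 0.09), both higher and called, while Ap3s2 had a log2 fold change of -0.37, SE 0.11. Ap3s2 was not called. Its knockdown replicate 3, at 49.6 CPM, lay within its control range of 43.8 to 51.7 CPM. The AP-4 adaptor of the trans-Golgi network was split too, with Ap4e1 at 12.2 to 15.5 CPM against 19.8 to 21.7 CPM (0.59, SE 0.09) and Ap4m1 at 19.1 to 22.7 CPM against 16.4 to 18.3 CPM (-0.31, SE 0.07). Both AP-4 subunits were called and neither overlapped. Within TRAPP the other subunits among the 65 genes were lower, Trappc5 with -0.31, SE 0.08 and Trappc3 with -0.24, SE 0.07, against 0.58 for Trappc6b. Trappc5 was called and Trappc3 was not, and the groups overlapped in both. The p24 receptors differed in sign as well, Tmed7 having a log2 fold change of 0.25, SE 0.07 against -0.37 for Tmed4. Tmed7 was not called, and its groups overlapped. Subunits of these complexes that were not among the genes with a symbol were not analysed here.

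Many of the 42 lower genes were highest in the same knockdown SON. Knockdown replicate 3 was the highest of the 5 knockdown SONs in 32 of them (76.2%), against 56.4% of the 732 lower genes that edgeR called over the whole table. It was the highest in all 3 granule proteins, in 8 of 9 lower Golgi genes and in 14 of 17 lower endosome genes, and in 3 of 6 lower genes of both ER to Golgi transport and exocytosis. Knockdown replicate 5 was the lowest in 26 of the 42. Among the 23 higher genes knockdown replicate 5 was again the lowest in 18, that is nearest to the control SONs, and replicate 3 was the highest in 9.

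**Figure D3:**
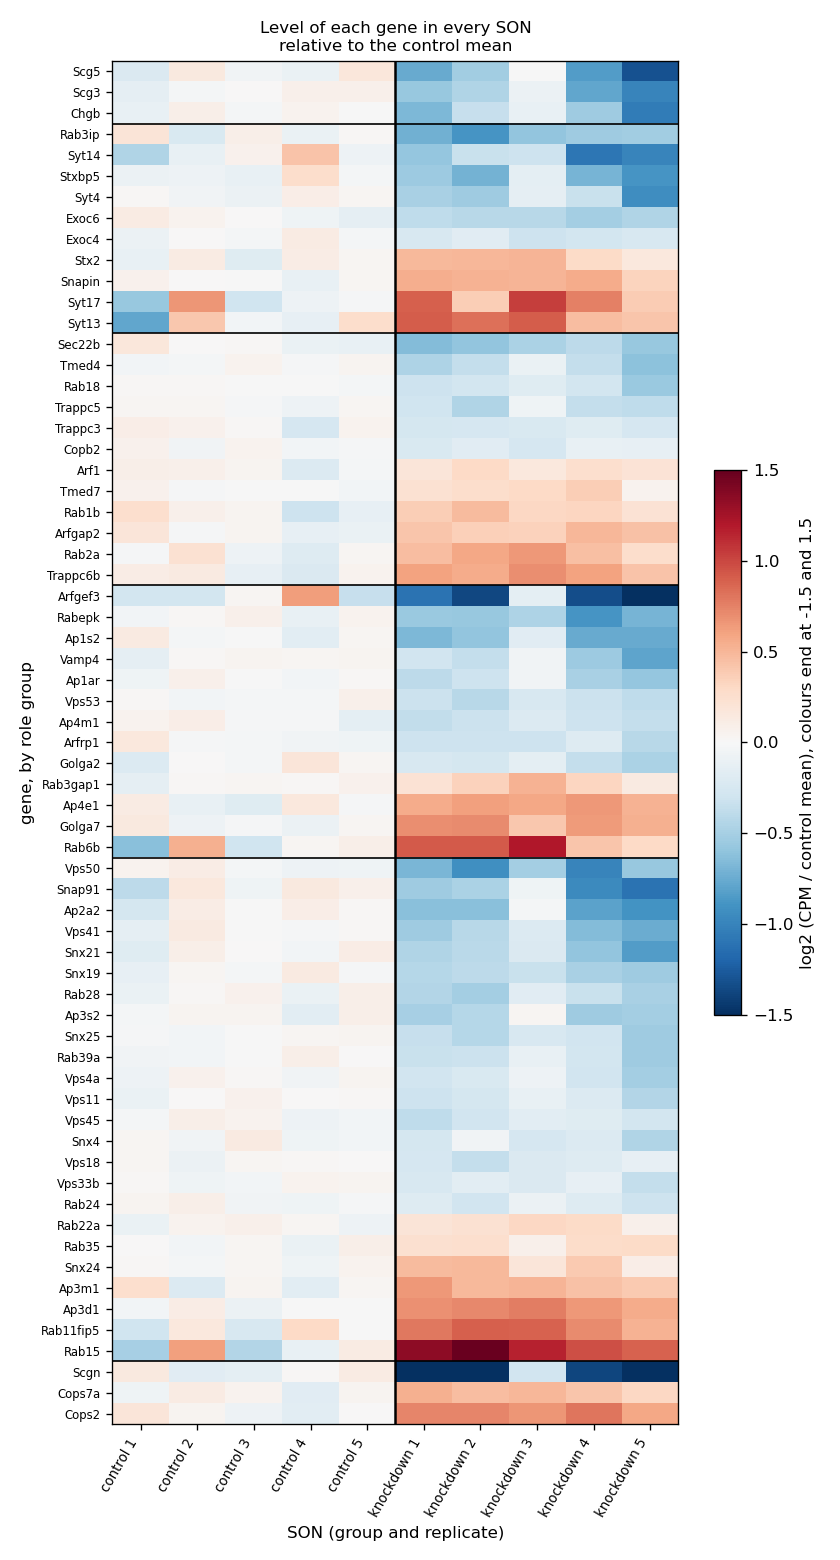
Level of each of the 65 genes in every SON as log2 of its CPM over the control mean, with blue below and red above that mean, genes grouped by role and colours ending at -1.5 and 1.5. In the lower genes the column of knockdown replicate 3 is paler than its neighbours and that of knockdown replicate 5 most often the darkest (26 of 42), whereas the higher genes are red or pale red in all 5 knockdown columns.

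Within animals the median log2 difference of the 42 lower genes was -0.35, -0.42, -0.18, -0.41 and -0.54 in animals 1 to 5, and that of the 23 higher genes was 0.48, 0.40, 0.52, 0.59 and 0.30. Creb3l1 itself differed by -1.51, -0.94, -1.82, -1.01 and -0.78. Animal 3 therefore had the lowest Creb3l1 ratio and the smallest difference of the lower genes, and animal 5 the highest Creb3l1 ratio and the largest difference of the lower genes. The higher genes did not follow this order, with their smallest median in animal 5 (0.30) and their largest in animal 4 (0.59). By level, Creb3l1 was lowest in knockdown replicate 1 (7.10 CPM), not in knockdown replicate 3 (8.69 CPM). With 5 animals no correlation was computed.

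**Figure D4:**
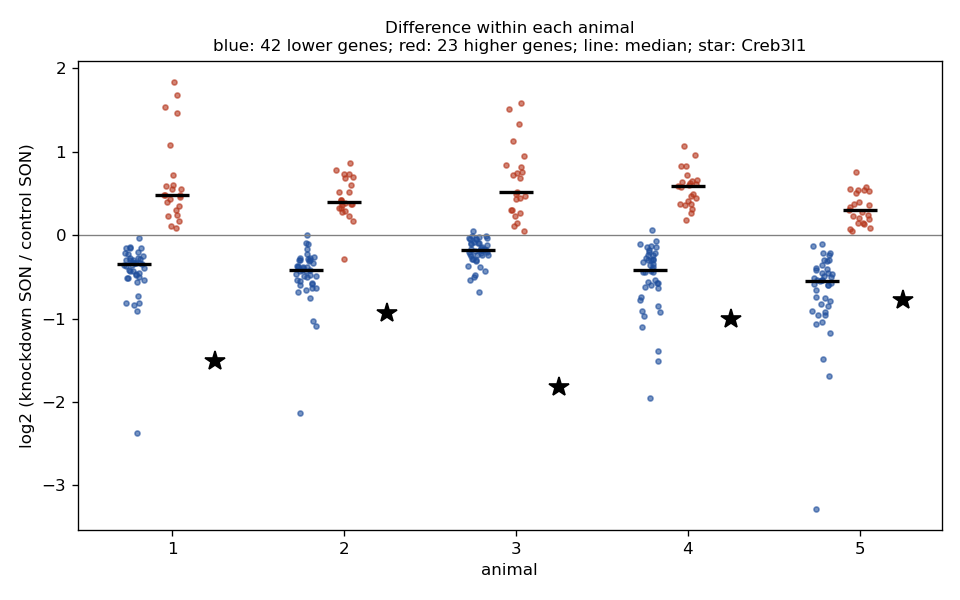
Log2 ratio of the knockdown to the control SON within each of the 5 animals, with a blue point for each lower gene, a red point for each higher gene, a line at each median and a star for Creb3l1. The blue median is nearest to 0 in animal 3 (-0.18), where the star is lowest (-1.82), and farthest in animal 5 (-0.54), where the star is highest (-0.78). The red median is nearest to 0 in animal 5 (0.30) and farthest in animal 4 (0.59).

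Of the 65 genes 3 share a prefix with the families above but have another main role. Scgn (ENSRNOG00000016628), secretagogin, a calcium-binding protein of neuroendocrine cells, was at 13.1, 10.4, 10.7, 11.9 and 12.8 CPM in the control SONs and 2.53, 2.39, 9.69, 4.54 and 1.32 CPM in the knockdown SONs. Its log2 fold change (-1.53, SE 0.45) was the lowest of the 65, but knockdown replicate 3 was close to the control SONs and edgeR did not call the gene. Cops2 and Cops7a, subunits of the COP9 signalosome that controls ubiquitin ligases, were higher and called, Cops2 at 79.5 to 101 CPM against 133 to 155 CPM (0.70, SE 0.08) and Cops7a at 80.7 to 99.5 CPM against 113 to 132 CPM (0.45, SE 0.08). The other 62 genes have a role in trafficking or secretion.

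Lists of 21 trafficking pathways and complexes held 320 genes, of which 65 were among the 1999 genes with a symbol. Of these list genes 10 were not among the genes above. Those 10 had been chosen by the same comparison, so they are a description too. Past the threshold were the ESCRT genes Stam (0.64, SE 0.09), Chmp2b (0.39, SE 0.07) and Chmp1a (-0.34, SE 0.06), which sort ubiquitinated cargo into endosomes, and Cadps2 (-0.82, SE 0.20), which primes dense-core vesicles for release. Cadps2 was at 159, 118, 147, 177 and 159 CPM in the control SONs and 85.5, 73.2, 121, 96.6 and 52.4 CPM in the knockdown SONs, and knockdown replicate 3 was again the highest of the knockdown SONs. Not past it were Tgfbrap1 of CORVET (0.20), Sec24c (0.28), Rab11b (0.32), Use1 (0.31), Gorasp1 (-0.33) and Gorasp2 (-0.26).

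Promoter sequences were taken from RefSeq on the rat assembly GRCr8, from 250 bases before to 50 bases after each annotated start, and matched by symbol for 56 of the 65 genes. These 56 genes had 68 windows, so some had more than 1 annotated start. Searched on both strands were 5 motifs. They were TGACGTG, the core of the unfolded protein response element, then CACGTG, the E-box core, then CCGGAAG, the core of ETS factor sites, then the letters ACTACAT, and last GGGCGG, the GC box. The motif TGACGTG was found for 4 of the 56 genes (7.14%, against 2.0% of 18999 protein-coding genes), which were Arfgef3, Copb2, Scg5 and Arf1, 3 lower and 1 higher. CACGTG was found for 4 genes (7.14% against 7.69%), Vps50, Vps11, Ap1s2 and Snx25, all lower. CCGGAAG was found for 16 genes (28.6% against 11.6%), 12 of the 40 lower and 4 of the 16 higher genes that matched, among them Vps11, Vps18, Vps50 and Vps53. ACTACAT was found for 2 genes (3.57% against 2.73%), Vps41 and Vps50, and GGGCGG for 38 (67.9% against 44.1%). No 2 of these motifs overlapped in a window of the 56 genes. The 18999 genes were not limited to those expressed in the SON, whereas all members had passed the count filter. The shares thus compare unlike sets, and no share over expressed genes was computed. A match is a run of letters and says nothing of binding.

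The 250 bases before the start are shown for tether genes that were lower together (Vps50, Vps53, Vps18 and Vps11) and for genes with TGACGTG (Arfgef3, Copb2 and Arf1), 5′ to 3′ on the strand of the gene in GRCr8. Of each gene 1 window is shown. Capitals mark the first 4 of these motifs or their reverse complements where they lie wholly before the start. A second CACGTG of Vps11 begins 4 bases before the start, and a second CCGGAAG of Vps53 begins 1 base before it. Both run past the start and are not marked. The CCGGAAG match of Vps11 lies after the start. In Vps50 CCGGAAG and ACTACAT stand end to end, and the matches of Scg5 lie after the start.
Vps50 (chr4:32438899-32439148, plus strand): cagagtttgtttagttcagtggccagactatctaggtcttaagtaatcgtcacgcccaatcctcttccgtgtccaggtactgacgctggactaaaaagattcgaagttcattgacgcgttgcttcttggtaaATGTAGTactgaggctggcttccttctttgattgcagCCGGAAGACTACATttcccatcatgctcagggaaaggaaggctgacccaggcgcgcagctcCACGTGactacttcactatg
Vps53 (chr10:61536913-61537162, minus strand): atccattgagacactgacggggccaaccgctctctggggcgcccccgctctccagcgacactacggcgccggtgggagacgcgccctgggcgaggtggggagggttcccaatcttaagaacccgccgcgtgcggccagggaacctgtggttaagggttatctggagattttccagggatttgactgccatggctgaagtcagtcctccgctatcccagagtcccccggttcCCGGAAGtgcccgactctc
Vps18 (chr3:126733026-126733275, plus strand): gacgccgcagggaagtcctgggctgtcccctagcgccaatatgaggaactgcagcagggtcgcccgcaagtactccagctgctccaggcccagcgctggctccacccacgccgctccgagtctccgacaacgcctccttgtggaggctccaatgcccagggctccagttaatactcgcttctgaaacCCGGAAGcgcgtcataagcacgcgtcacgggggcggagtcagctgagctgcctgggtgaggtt
Vps11 (chr8:53595378-53595627, minus strand): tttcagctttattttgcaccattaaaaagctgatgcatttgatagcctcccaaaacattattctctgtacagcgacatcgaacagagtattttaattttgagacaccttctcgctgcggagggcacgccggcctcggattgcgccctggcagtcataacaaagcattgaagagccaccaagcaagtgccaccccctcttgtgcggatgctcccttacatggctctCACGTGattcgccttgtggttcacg
Arfgef3 (chr1:15223743-15223992, minus strand): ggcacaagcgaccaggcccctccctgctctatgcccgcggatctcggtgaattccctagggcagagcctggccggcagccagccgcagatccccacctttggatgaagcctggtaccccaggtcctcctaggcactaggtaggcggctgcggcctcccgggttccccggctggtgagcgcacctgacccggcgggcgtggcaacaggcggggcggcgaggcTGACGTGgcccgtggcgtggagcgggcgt
Copb2 (chr8:108040437-108040686, plus strand): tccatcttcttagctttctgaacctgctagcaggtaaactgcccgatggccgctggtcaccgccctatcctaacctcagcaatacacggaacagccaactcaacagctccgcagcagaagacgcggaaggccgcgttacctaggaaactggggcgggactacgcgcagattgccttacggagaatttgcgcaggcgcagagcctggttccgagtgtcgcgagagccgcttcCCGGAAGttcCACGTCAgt
Arf1 (chr10:44513995-44514244, minus strand): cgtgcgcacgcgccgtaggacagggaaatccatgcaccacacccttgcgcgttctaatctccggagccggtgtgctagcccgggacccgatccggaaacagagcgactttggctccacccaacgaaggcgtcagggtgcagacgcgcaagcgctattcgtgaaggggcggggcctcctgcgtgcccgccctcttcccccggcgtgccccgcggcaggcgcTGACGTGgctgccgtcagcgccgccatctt

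The study's list of genes that both differed in these SONs and were bound in its Creb3l1 chromatin immunoprecipitation held 9 of the 65 genes. Snapin, Tmed7 and Rab35 were higher, and Vps50, Snx19, Vps41, Rab39a, Exoc4 and Golga2 were lower, with the values given above. That list was made with these SONs and is not independent of the choice of the genes. The share of bound genes among all genes that differed was not computed here, so the count is not read as a trait of these genes.

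The genes nearest to the limit of the choice, by the DESeq2 fit made here, were Snap91, Syt17, Scg5, Syt14 and Rab22a. For genes just outside the limit no symbol was available here, and they were not analysed.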

How the data were processed

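RNA-seq counts of 10 SONs from 5 rats (5 control shRNA, 5 Creb3l1 shRNA) were analysed. The authors trimmed reads, aligned them to rat Rn6 with STAR and counted them with featureCounts, and the deposited values are raw counts per gene and SON. The libraries were stranded. The strand setting of the counting and the handling of reads that map to several places are not given in the sources used here, so genes with close paralogs (Rab1b, Rab2a, Rab6b, Arf1, Ap2a2) are less certain. The authors' table also holds fold changes and p-values of DESeq2 1.28.1, which were not used. Its normalised counts were used once, to check which column belonged to which SON, and its gene symbols named the genes.

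Counts were filtered with filterByExpr (minimum count 10), which kept 16286 genes out of 24286 that had any count. They were scaled with TMM (factors 0.956 to 1.07) and fitted with the quasi-likelihood test of edgeR 4.0.16 in R 4.3.3 over all 10 SONs without an animal term. P-values were adjusted by Benjamini-Hochberg over all genes tested, and called means an adjusted p under 0.05. Each SE is the log2 fold change divided by the square root of F. The test was checked on simulated counts without an animal effect. There the main test recovered 58.5% of 200 genes changed 2-fold, with 10 false calls. The fit with the block recovered 42%, with 8 false calls, and DESeq2 73.1% of 197 such genes, with 50 false calls. A gene that was not called may thus still differ. The members, the role groups and the gene lists were chosen with earlier results of these data known. Values in every SON are given for the 3 granule proteins and, in each other role group of trafficking genes, for the 3 genes with the lowest and the 2 with the highest log2 fold change among those of at least 1 CPM on average, 23 genes in all. The same values of Scgn, Cadps2, Sim1, Pdyn and Nefm, and the ranges of other genes, were added after their values were seen, as was the choice of motifs and promoters.

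Tried instead were DESeq2 1.42.0, limma-voom (limma 3.58.1), RLE factors or library size only in place of TMM, no filter or at least 10 counts in every SON, the animal as a replicate block, an adjusted p under 0.01 and leaving out each SON. The SONs with the same number came from the same animal, per the labels. Their deviations from the group means correlated at -0.21, 0.51, -0.52, -0.38 and -0.64 in animals 1 to 5 over 16286 genes (mean -0.25, against 0.07 for SONs of different animals). Replicates of a group differed by more than sampling noise (chi-square per degree of freedom 29.1 or more). Replicates are separate animals.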

Additional observations from a re-analysis of the deposited data

Results flagged for a closer look

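The control and the knockdown values of each gene were examined for a SON set apart, that is a gap to its nearest neighbour of over 0.71 of the range of 5 SONs, which chance gives in about 1 in 20 groups. Of 130 groups, 2 for each of the 65 genes, 11 held one, and 4 of these were knockdown replicate 3. In that SON Ap1s2 was at 132.7 CPM (other knockdown SONs 88.51 to 98.76), Ap2a2 at 219.9 (120.7 to 144.9), Ap3s2 at 49.6 (33.64 to 36.17) and Rab35 at 73.43 (81.94 to 84.67), each on the side of the control SONs. Knockdown replicate 5 was apart for Snapin, at 107.4 CPM (121.6 to 125.2). Among the control SONs, replicate 1 was apart for Vamp4 at 92.28 CPM (102.9 to 104.3), Arfrp1 at 47.27 (40.51 to 41.77) and Rab3gap1 at 61.83 (68.88 to 71.38), replicate 2 for Vps18 at 54.51 (58.15 to 59.1), and replicate 4 for Trappc3 at 65.6 (78.95 to 83.69) and Stxbp5 at 194.6 (149.6 to 158.7).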

How the results depend on the processing

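The 21 lower genes called became 42 with DESeq2, 0 with the replicate block, 37 with library size only and 7 at an adjusted p under 0.01, and lay between 8 and 34 when 1 SON was left out. The 15 higher genes called became 23 with DESeq2, 0 with the block and 9 at an adjusted p under 0.01, and lay between 12 and 15 when 1 SON was left out. The other settings (RLE factors, no filter, at least 10 counts in every SON, limma-voom) gave 17 to 29 lower and 12 to 15 higher. The share of all genes called was counted for the main fit, DESeq2 and the block only. The log2 fold change of Creb3l1 was -1.21 with the block (edgeR adjusted p 0.0586), -1.16 at an adjusted p under 0.01, where it was not called, and -1.33 to -1.02 without 1 SON. Its mean log2 difference within animals was -1.21 (exact two-sided permutation within animals p = 0.0625, a test chosen after seeing the data). Among the 23 genes with values in every SON, 13 lost their call with the block and none changed direction in any fit. With the block 4 residual degrees of freedom remained in place of 8, and the deviations of paired SONs correlated negatively in 4 of the 5 animals. Why the calls were lost was not tested. Planned counts over the pathway lists were not run, since only 65 of 320 list genes were among the genes with a symbol. The lowest count of these genes in a SON was 41, and precision was limited by 5 SONs per group.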
